A study of Mus musculus with 4 samples.

Results

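The genes described here encode the proteins that end the light response of photoreceptors and restore their dark state. They were chosen by gene symbol as 10 of the 22863 genes listed in the deposited table, namely Sag, Grk1, Rcvrn, Guca1a, Guca1b, Gucy2e, Gucy2f, Rgs9, Rgs9bp and Pdc, and all 10 were found there. RNA-seq was performed on 4 samples of the posterior eye of C3H mice of the C3H/f+/+ strain, which makes melatonin and whose rods have an intact Pde6b gene. Subjective day mice were kept in darkness for 18 hours and taken at circadian time 6, whereas objective day mice had morning light, were dark-adapted for 1 hour and were taken at zeitgeber time 6. Each condition had 2 samples, and each sample pooled 4 eyes from a female and a male, so that the spread between samples is a spread between pools and not between single animals. By the Methods, the lens and the anterior eye were removed, to leave the retina with the RPE, the choroid and the back of the sclera. Lens and skeletal muscle markers were still present in the pools, as given below. The study compared the conditions to look for lower expression of visual cycle genes in objective day, and the same comparison is made here for the shutoff and recovery genes.

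A photon activates the visual pigment, which activates the G protein transducin and, through it, a phosphodiesterase that breaks down cGMP, so that the cGMP-gated cation channels of the outer segment close. To end the response, the pigment is phosphorylated by GRK1 and capped by arrestin (Sag), while recoverin (Rcvrn) holds GRK1 back when calcium is high. Transducin is switched off by the RGS9 complex, which the anchor protein R9AP (Rgs9bp) ties to the disc membrane, and phosducin (Pdc) binds the transducin beta-gamma subunits. The fall of calcium in light releases the activating proteins GCAP1 (Guca1a) and GCAP2 (Guca1b) to stimulate the retinal guanylate cyclases GC1 (Gucy2e) and GC2 (Gucy2f), which resynthesize cGMP. These proteins are made mainly in rods and cones.

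The members are placed by GENCODE release M21 on the GRCm38 assembly. Gucy2f (ENSMUSG00000042282) lies on the minus strand of chromosome X from 142081160 to 142196931, and Gucy2e (ENSMUSG00000020890) on the minus strand of chromosome 11 from 69218117 to 69237036. Sag (ENSMUSG00000056055, plus strand) spans chromosome 1 from 87803680 to 87845158, and Pdc (ENSMUSG00000006007, plus strand) spans the same chromosome from 150319417 to 150333906. Grk1 (ENSMUSG00000031450, plus strand) lies on chromosome 8 from 13405081 to 13421951, and Rgs9bp (ENSMUSG00000056043, minus strand), a gene with 1 exon, on chromosome 7 from 35578993 to 35585582. Rcvrn (ENSMUSG00000020907, plus strand, 67695326 to 67703333) and Rgs9 (ENSMUSG00000020599, minus strand, 109225355 to 109298129) share chromosome 11 with Gucy2e. Guca1b (ENSMUSG00000023979, plus strand, 47385393 to 47392967) and Guca1a (ENSMUSG00000023982, minus strand, 47394558 to 47400584) are neighbours on chromosome 17 that point towards each other, with 1590 bases between them. No exonic base of the 10 members is shared with another annotated gene, although Pdc and Rcvrn each lie within or across the span of other genes.

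RefSeq start sites with upstream sequence were found by symbol for 7 of the 10 members. The 250 bases before the start are printed here, from RefSeq on GRCm38.p6, for the only member that passed the test, its paralog Gucy2e and the 3 other matched members with the largest differences between the conditions. The windows are chrX:142196937-142197186 (minus strand) for Gucy2f, chr11:69237023-69237272 (minus strand) for Gucy2e, chr1:87803430-87803679 (plus strand) for Sag, chr17:47400607-47400856 (minus strand) for Guca1a and chr1:150319167-150319416 (plus strand) for Pdc. The printed windows of Guca1a and Gucy2f belong to RefSeq start sites that lie upstream of the GENCODE gene start, and that of Gucy2e to a RefSeq start site within the GENCODE gene. Distances to the start are counted from the RefSeq start site. Each is written 5′ to 3′ on the strand of its gene, and capitals mark matches on either strand to TAATCC, the core letters bound by the photoreceptor factor CRX (GGATTA on the other strand), and to TGCTGA, letters from the site of the rod factor NRL (TCAGCA on the other strand).
Gucy2f: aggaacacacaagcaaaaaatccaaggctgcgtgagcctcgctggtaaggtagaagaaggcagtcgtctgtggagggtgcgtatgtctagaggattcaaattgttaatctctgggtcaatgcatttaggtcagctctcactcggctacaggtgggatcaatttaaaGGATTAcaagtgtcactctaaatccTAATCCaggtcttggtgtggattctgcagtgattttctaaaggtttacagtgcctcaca
Gucy2e: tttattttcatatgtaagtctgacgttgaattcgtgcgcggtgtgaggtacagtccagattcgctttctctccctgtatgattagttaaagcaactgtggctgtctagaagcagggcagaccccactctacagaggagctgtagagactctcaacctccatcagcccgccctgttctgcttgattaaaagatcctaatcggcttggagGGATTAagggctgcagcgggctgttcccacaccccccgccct
Sag: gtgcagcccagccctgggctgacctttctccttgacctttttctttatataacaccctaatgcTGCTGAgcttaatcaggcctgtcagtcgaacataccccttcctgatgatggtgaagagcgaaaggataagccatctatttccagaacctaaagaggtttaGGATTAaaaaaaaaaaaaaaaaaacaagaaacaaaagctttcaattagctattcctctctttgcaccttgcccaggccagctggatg
Guca1a: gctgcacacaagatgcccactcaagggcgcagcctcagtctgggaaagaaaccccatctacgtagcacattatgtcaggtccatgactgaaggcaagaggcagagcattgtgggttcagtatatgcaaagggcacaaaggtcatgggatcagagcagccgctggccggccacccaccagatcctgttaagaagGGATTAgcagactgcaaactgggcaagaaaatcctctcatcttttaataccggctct
Pdc: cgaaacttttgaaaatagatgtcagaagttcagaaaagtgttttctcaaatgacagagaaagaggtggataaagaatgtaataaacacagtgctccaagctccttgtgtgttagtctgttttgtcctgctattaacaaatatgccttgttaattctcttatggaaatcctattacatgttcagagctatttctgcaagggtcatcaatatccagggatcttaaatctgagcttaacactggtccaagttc

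The CRX letters were found in 4 of the 7 windows, against 6.3% of all 32851 RefSeq windows of this length. Gucy2f held 2 matches, ending 78 and 53 bases before its start, and Gucy2e, Sag and Guca1a held 1 match each, ending 36, 81 and 51 bases before theirs. NRL letters were found in the windows of Sag and Rgs9, against 16.1% of all windows. None of the 7 windows held the clock E-box CACGTG, which 6.0% of all windows held, or the EGR letters GCGNGGGCG, which 4.7% held. Matches of different motifs did not overlap in any window. Thus CRX letters stood in the windows of genes with higher and with lower values in objective day, and the Pdc window held none of the 4 motifs.

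RNA levels are given as adjusted counts, the deposited values per gene. They are fractional and have nearly equal totals in the 4 samples, as read counts adjusted to a shared library size would, but the sources used here do not state how they were made. Differences are log2 fold changes of objective day over subjective day on the log2(value + 1) scale, with the standard error (SE) and the Benjamini-Hochberg adjusted p of limma's test over the 17784 genes tested, those that reached an adjusted count of 10 in 2 or more samples. All 10 members passed this filter in every sample. Gucy2f was the only member past the threshold of 0.05, so that 1 of 10 was called, lower in objective day, and 0 of 10 were called higher. Of all genes tested, 8.51% were called, 7.45% lower and 1.06% higher, a split of 1325 lower and 189 higher that became 122 lower and 107 higher with the trend of each sample with transcript GC content removed. Unadjusted p was under 0.05 for 5 of the 10 members and for 25.4% of all genes tested. Values of the conditions did not overlap for 7 of the 10 members, against 56.1% of all genes tested (27.9% higher and 28.2% lower in objective day), and the members' median log2 fold change was 0.048, against 0.015 for all genes tested. The called share of the members, 1 of 10, was close to that of all genes, and individual members lay on both sides of 0, from -0.39 for Gucy2f to 0.51 for Sag. In these bulk samples fewer photoreceptors and less RNA per photoreceptor cannot be told apart.

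**Figure D1:**
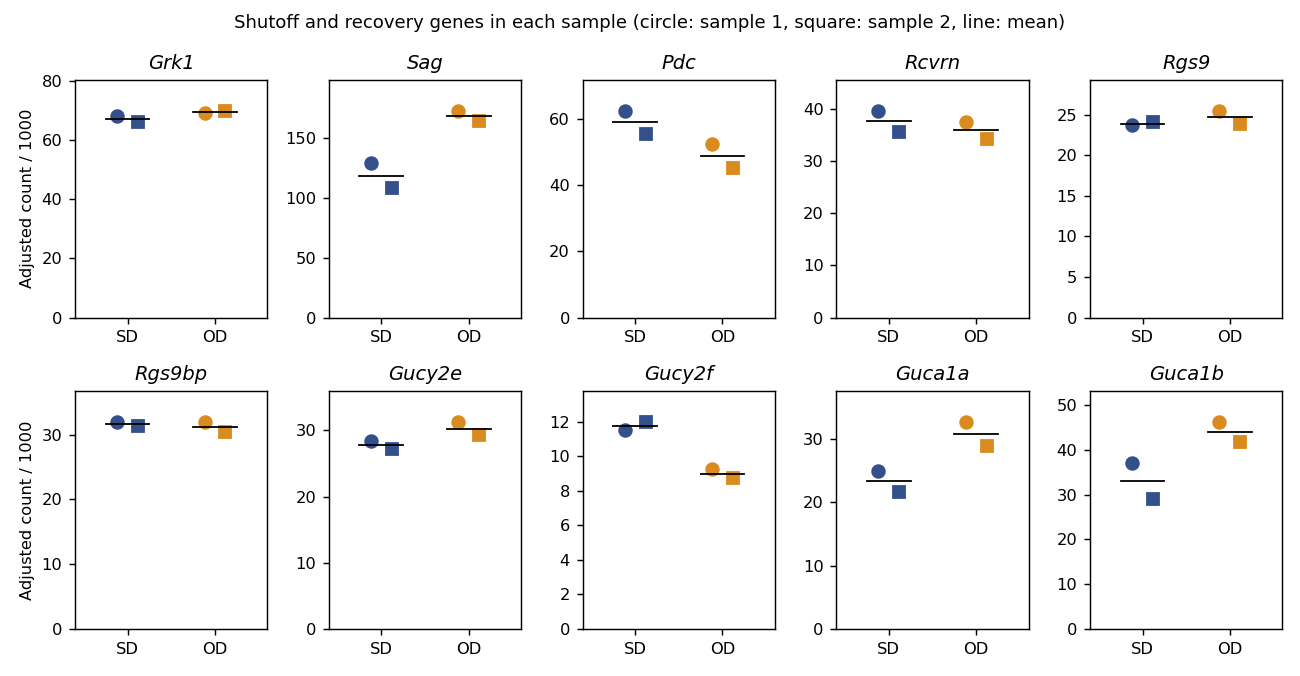
Adjusted counts (divided by 1000, axes from 0) of the 10 shutoff and recovery genes in the 2 subjective day (SD) and 2 objective day (OD) samples, with the mean of each condition as a line. Sag, Guca1a, Guca1b, Grk1 and Gucy2e were higher in both objective day samples, Gucy2f and Pdc were lower in both, and Rcvrn, Rgs9 and Rgs9bp overlapped.

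The guanylate cyclases rebuild the cGMP that the light response consumed. Gucy2f had adjusted counts of 11528 and 11990 in the subjective day samples and 9273 and 8720.5 in the objective day samples. Both objective day samples lay below both subjective day samples, and the distance between the conditions was larger than that between the samples of either condition. From 11759 ± 327 in subjective day to 8997 ± 391 in objective day (SD, n = 2 each), Gucy2f fell by 23.5% (log2 fold change -0.39, SE 0.066, 95% confidence interval -0.54 to -0.23, adjusted p = 0.0151). This call was lost when either objective day sample was left out, at log2 fold changes of -0.43 without sample 1 and -0.34 without sample 2. It was lost at an unchanged -0.39 when the variance prior did not follow mean expression (limma, adjusted p = 0.139). It was also lost when the trend of each sample with transcript GC content was removed (log2 fold change -0.11, adjusted p = 0.571). The call held with the replicate block, median scaling, quantile normalization, scaling to rod markers, and other pseudocounts and filters. Over all 17 alternative settings the adjusted p ran from 0.0021 to 0.669.

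Gucy2e, the paralog with the higher level, had adjusted counts of 28379 and 27248 in subjective day, against 31260 and 29306 in objective day. Its conditions did not overlap, yet the difference did not pass the threshold (log2 fold change 0.12, SE 0.079, 95% confidence interval -0.063 to 0.31, adjusted p = 0.379). Within each sample, which removes any effect of library scaling, Gucy2e exceeded Gucy2f by 1.30 and 1.18 on the log2 scale in subjective day, but by 1.75 and 1.75 in objective day. The gap between the paralogs was thus wider by 0.51 in objective day, without overlap. A two-sided exact permutation test over the samples gave p = 0.333, the smallest that 2 samples against 2 allow, and 0.444 after adjustment over 4 such contrasts. With the GC trend removed, the widening was 0.15.

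GCAP1 and GCAP2 sense calcium and activate these cyclases when it falls. Guca1a had adjusted counts of 25025 and 21606 in subjective day, against 32699 and 28875 in objective day. Guca1b had adjusted counts of 37043 and 28914 in subjective day, against 46205 and 41748 in objective day. For both genes the objective day samples lay above the subjective day samples, and the subjective day sample 2 was the lowest of the 4. Guca1a was 32.1% higher in objective day (log2 fold change 0.40, SE 0.10, adjusted p = 0.0561) and Guca1b was 34.2% higher (log2 fold change 0.42, SE 0.13, adjusted p = 0.0903), and neither passed the threshold. Their 95% confidence intervals before adjustment ran from 0.16 to 0.64 and from 0.12 to 0.73.

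The neighbours Guca1a and Guca1b differed by similar amounts within every sample. Guca1a minus Guca1b on the log2 scale was -0.57 and -0.42 in subjective day, against -0.50 and -0.53 in objective day, so that the conditions overlapped and the difference between them was -0.022 (two-sided exact permutation test, p = 1). A condition left with 1 sample adds nothing to the spread, which then comes from the other condition and from the prior over all genes, so that the lone sample is assumed to vary likewise. On that basis, without the subjective day sample 1 the log2 fold change was 0.51 for Guca1a (adjusted p = 0.0133) and 0.60 for Guca1b (adjusted p = 0.0073), with 14.4% of all genes called. Without the subjective day sample 2 it was 0.30 for Guca1a (adjusted p = 0.143) and 0.25 for Guca1b (adjusted p = 0.257). Over all 17 alternatives the adjusted p ran from 0.0014 to 0.325 for Guca1a and from 0.0034 to 0.374 for Guca1b.

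**Figure D2:**
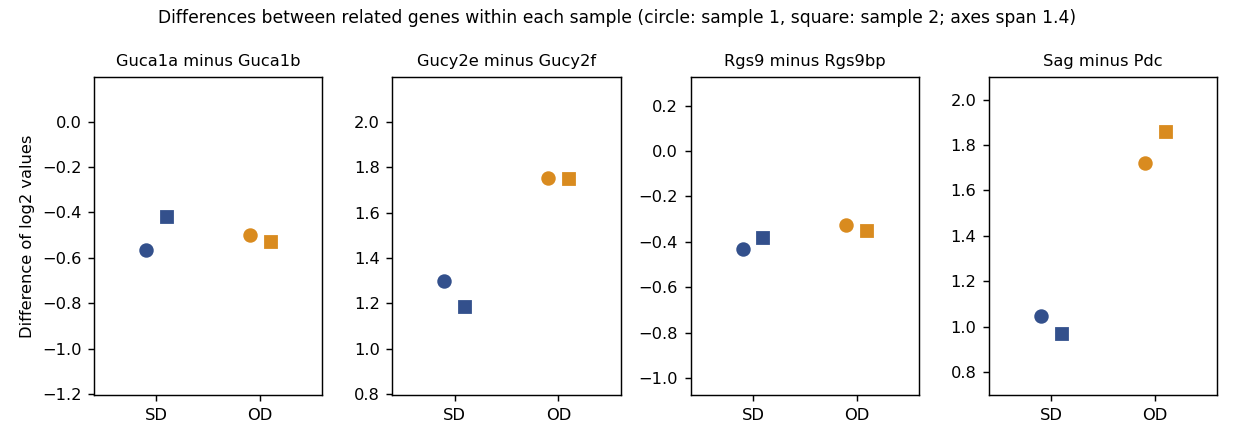
Difference of log2 values between related genes within each sample, for subjective day (SD) and objective day (OD), on axes of equal span. Gucy2e minus Gucy2f and Sag minus Pdc were wider apart in both objective day samples, whereas Guca1a minus Guca1b overlapped between the conditions.

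Arrestin caps the phosphorylated pigment. Sag had adjusted counts of 128910 and 108480 in subjective day, against 172930 and 164010 in objective day. Every objective day value exceeded every subjective day value, by more than the distance between the samples of a condition. Its mean was 118695 ± 14446 in subjective day and 168470 ± 6307 in objective day (SD, n = 2 each), and on the log2 scale it was 42.4% higher (log2 fold change 0.51, SE 0.14, 95% confidence interval 0.18 to 0.84, adjusted p = 0.0714), which did not pass the threshold. Without the subjective day sample 1, where the spread rests on the objective day pair and the prior, the log2 fold change was 0.63 and the adjusted p 0.0397, and without each of the other 3 samples it was between 0.233 and 0.362. Quantile normalization, which forces the distributions of all samples to match, moved the log2 fold change of Sag to 0.93 (adjusted p = 0.0069), and over all 17 alternatives it lay between 0.39 and 0.93, with adjusted p from 0.0010 to 0.362.

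The summed level of the members was higher in both objective day samples, and without Sag it overlapped between the conditions. The 10 genes together made up 1.295% and 1.178% of the total in the subjective day samples and 1.457% and 1.431% in the objective day samples. Sag alone held 28.2% and 26.4% of the members' sum in subjective day, against 34.0% and 34.4% in objective day. With Sag left out, the sums of the other 9 genes were 327572 and 302275 in subjective day, against 335699 and 312214 in objective day.

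The kinase that phosphorylates the pigment and its calcium-dependent inhibitor differed little. Grk1 had adjusted counts of 68001 and 66006 in subjective day, against 68974 and 69795 in objective day. Rcvrn had adjusted counts of 39635 and 35526 in subjective day, against 37447 and 34314 in objective day. The objective day values of Grk1 lay just above those of subjective day, whereas those of Rcvrn overlapped. Log2 fold changes were 0.051 for Grk1 (95% confidence interval -0.17 to 0.28, adjusted p = 0.785) and -0.066 for Rcvrn (-0.29 to 0.16, adjusted p = 0.71), so that differences between these bounds could not be told from 0.

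The RGS9 complex sets the speed at which transducin is switched off. Rgs9 had adjusted counts of 23673 and 24084 in subjective day, against 25465 and 23821 in objective day. Its membrane anchor Rgs9bp had adjusted counts of 31942 and 31423 in subjective day, against 31961 and 30422 in objective day. Both genes overlapped between the conditions, with log2 fold changes of 0.045 for Rgs9 (95% confidence interval -0.13 to 0.22, adjusted p = 0.754) and -0.023 for Rgs9bp (-0.21 to 0.16, adjusted p = 0.886). Gnb5, the G protein beta subunit that binds RGS9 and is the remaining part of the complex, had a log2 fold change of 0.045 (adjusted p = 0.71). All 3 subunit genes were thus within 0.05 of 0 on the log2 scale. Rgs9 minus Rgs9bp within a sample was -0.43 and -0.38 in subjective day, against -0.33 and -0.35 in objective day, a difference of 0.068 between the conditions (two-sided exact permutation test, p = 0.333, adjusted p = 0.444).

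Phosducin binds the transducin beta-gamma subunits. Pdc had adjusted counts of 62346 and 55478 in subjective day, against 52415 and 45213 in objective day. Both objective day samples lay below both subjective day samples, but the nearest samples of the 2 conditions were closer to each other than the samples within a condition. Its mean was 58912 ± 4856 in subjective day and 48814 ± 5093 in objective day (SD, n = 2 each; log2 fold change -0.27, SE 0.11, 95% confidence interval -0.54 to -0.0079, adjusted p = 0.185). Pdc had the lowest GC content of the members, and with the GC trend removed its log2 fold change turned to 0.31 (adjusted p = 0.381), so that no direction can be given for it. Over the 17 alternatives its adjusted p ran from 0.0050 to 0.649. Sag minus Pdc within a sample was 1.05 and 0.97 on the log2 scale in subjective day, against 1.72 and 1.86 in objective day, wider by 0.78 (two-sided exact permutation test, p = 0.333, adjusted p = 0.444), by 0.19 with the GC trend removed, and by 0.050 with GC content taken from coding transcripts.

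**Figure D3:**
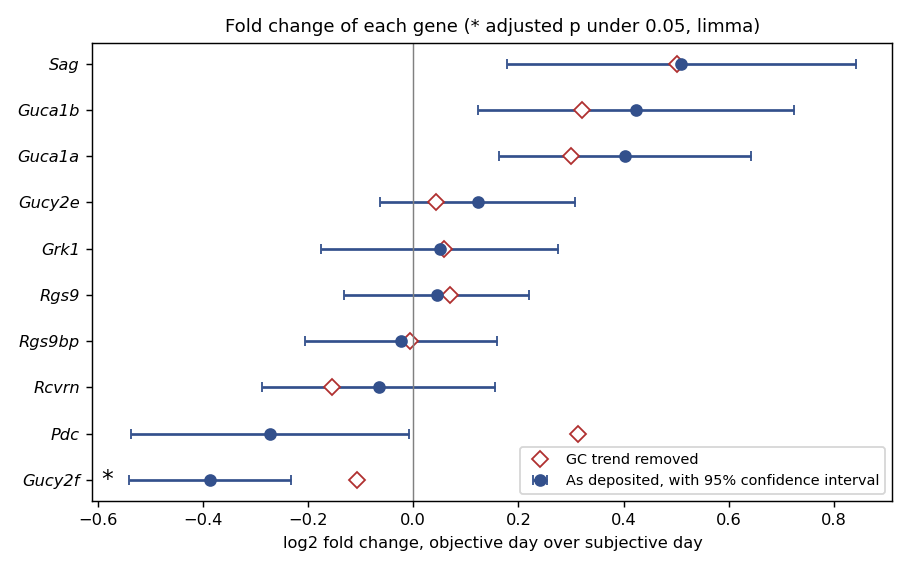
Log2 fold change of objective day over subjective day for each member, with its 95% confidence interval before adjustment (blue), and the value after removal of the GC trend (open red diamonds). Gucy2f alone carries the asterisk for an adjusted p under 0.05, and its value moves from -0.39 to -0.11, while that of Pdc moves across 0.

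Across the table, fold changes were higher for genes with more GC in their longest transcript (Spearman correlation 0.58 over 17536 genes, which share the same 4 libraries and are not independent replicates). The members lay between 37.8% and 55.9% GC, on both sides of the median of 49.8% over the genes tested. Pdc and Gucy2f, at 37.8% and 42.0% GC, were the lowest in GC content and had the lowest fold changes. Guca1a and Guca1b, at 55.7% and 55.9%, had the highest GC content and log2 fold changes of 0.40 and 0.42. Sag and Rcvrn stood away from this order, Sag at 49.7% with 0.51 and Rcvrn at 53.9% with -0.066. With the GC trend removed, Sag was at 0.50 (adjusted p = 0.204), Guca1a at 0.30 (adjusted p = 0.235) and Guca1b at 0.32 (adjusted p = 0.306), and 0 of the 10 members passed the threshold in limma's test, while 1.29% of all genes passed. An unadjusted p under 0.05 was then found for 3 of the 10 members and for 2402 of the 17784 genes. Such a removal also takes away any difference between the conditions that follows GC content, and the 2 cannot be told apart in these samples. The longest annotated transcript of Sag is a retained-intron model, and taken from its longest protein-coding transcript the GC content of Sag is 52.6% and its log2 fold change 0.44 (adjusted p = 0.293).

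**Figure D4:**
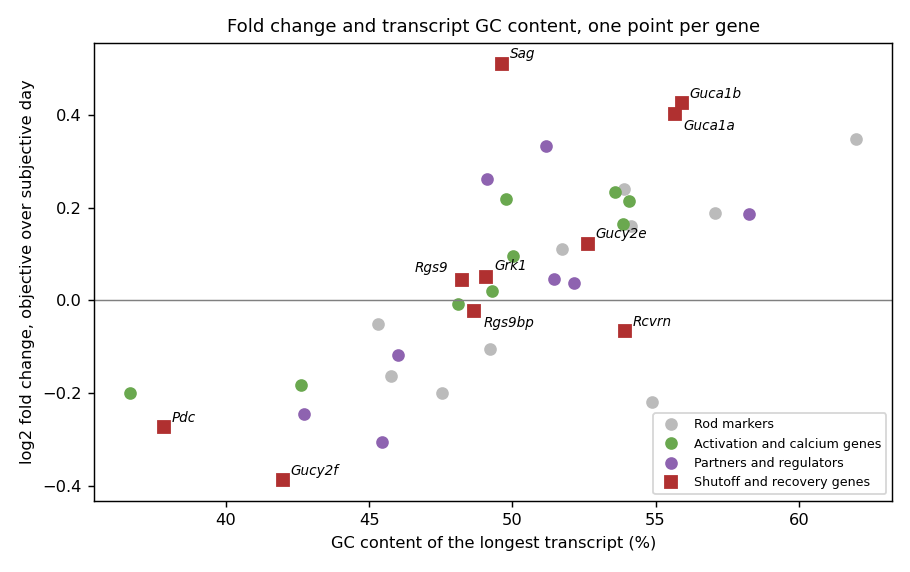
Log2 fold change of objective day over subjective day against the GC content of the longest transcript, 1 point per gene, for the 10 members (red squares), their partners and regulators, the activation and calcium genes and the rod markers. Pdc and Gucy2f, with low GC content, lie lowest among the members, and Sag and Rcvrn stand above and below the general course of the points.

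Levels of different members can be compared only per length. Per kb of the longest protein-coding transcript, the mean adjusted count over the 4 samples was highest for Sag at 83527, followed by Rcvrn at 35318, Guca1a at 30987, Guca1b at 23068 and Pdc at 16151. Grk1 followed at 9177, Rgs9 at 7004, Rgs9bp at 4770, Gucy2e at 3487 and Gucy2f at 1278. The range of Sag lay above that of Rcvrn, the ranges of each 2 neighbours from Rcvrn to Pdc overlapped, and from Pdc down to Gucy2f no neighbouring ranges did. For Rcvrn and Guca1a the value per kb is the same by either length. Guca1a was above Rcvrn in both objective day samples (37456 against 36007 and 33076 against 32994) and below it in both subjective day samples. In objective day sample 2 the values were nearly equal, and the difference of Guca1a between the conditions did not pass the threshold. The pigment-capping arrestin was therefore far above the cyclases, and the cyclase activators stood above the cyclases they activate. Per kb of merged exons of all transcripts, the means of Rcvrn and Guca1a came first and Sag followed at 16126, since the merged exons of Sag, which take in a retained-intron model, span 8904 bases against 1719 bases for its longest protein-coding transcript. By merged exons all 10 members were above 95% of the listed genes, from the percentile 95.6 for Gucy2f to 99.9 for Rcvrn and Guca1a.

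**Figure D5:**
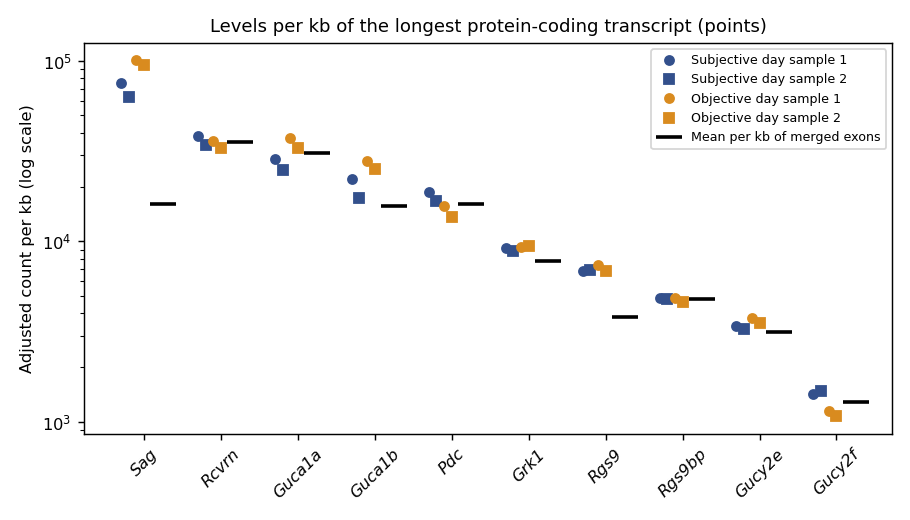
Adjusted count per kb (log scale) of each member in each sample, per kb of the longest protein-coding transcript (points), and the mean per kb of merged exons (black bars). Gucy2f is lowest by both lengths, and Sag is highest by the coding transcript only.

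Among genes listed as direct partners and regulators of the members, 0 of 8 were called in either direction by limma's test, while 4 had an unadjusted p under 0.05, and their median log2 fold change was 0.041. Rd3, which regulates and transports the retinal guanylate cyclases, came closest. It had adjusted counts of 7522 and 6608.5 in subjective day, against 9250.4 and 8518.8 in objective day, without overlap (log2 fold change 0.33, SE 0.082, adjusted p = 0.0507). Arr3, the arrestin of cones, had a log2 fold change of 0.26 (adjusted p = 0.0591), of the same sign as Sag. The phosducin-like gene Pdcl was at -0.12 and the phosphatase gene Ppef2 at 0.037, and neither passed the threshold.

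Of the activation and calcium genes on which the members act, 0 of 9 were called and 0 had an unadjusted p under 0.05. Their median log2 fold change was 0.096, with a range from -0.20 for Gngt1 to 0.23 for Pde6g. With the GC trend removed, the values of Gngt1 and Cnga1 turned to 0.51 and 0.062. Gnat1, the transducin alpha subunit that RGS9 switches off, was at 0.21 (adjusted p = 0.637), and Gnb1, the beta subunit that phosducin binds, was at -0.0079 (adjusted p = 0.983). Pde6a, Pde6b, Cnga1, Cngb1 and Slc24a1, the phosphodiesterase, channel and calcium exchanger genes, lay between -0.18 and 0.22.

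Listed rod markers outside the light response, among them the gene of the photoreceptor factor CRX, served as a rough measure of rod RNA. Of 10, 0 were called in limma's test and 4 had an unadjusted p under 0.05, the median log2 fold change was 0.030, and 5 were above and 5 below 0. That median changed sign with the sample left out, to 0.13 and -0.075 without subjective day samples 1 and 2 and to -0.067 and 0.14 without objective day samples 1 and 2. Their summed adjusted counts were 493597 and 423112 in subjective day, against 524474 and 471942 in objective day, and so overlapped. In both conditions sample 2 had the lower sum, and the same holds for Sag, Guca1a, Guca1b, Pdc, Rcvrn, Gucy2e and Rgs9bp. When every sample was scaled to the rod markers, 4 members passed the threshold, namely Sag (log2 fold change 0.48, adjusted p = 0.0128), Guca1a (0.37, adjusted p = 0.0247), Guca1b (0.39, adjusted p = 0.0325) and Gucy2f (-0.42, adjusted p = 0.0217), against 1 in the values as deposited. Of all genes, 5.43% passed at that scaling.

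By the likeness of their 4 log2 deviations to the median profile of the members, the nearest of 6578 genes with a mean value of at least 1000 were Kidins220, Pan2, Lsm14b, Vps37b and Coq9. Their root mean square difference from that profile was between 0.0065 and 0.0084 on the log2 scale, over 4 samples. The median profile itself lay between -0.046 and 0.050 in the 4 samples, so these are genes with nearly level values.

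The totals of adjusted counts lay between 33278417 and 35236783. They are nearly equal and cannot be read as the sequencing depth, which the values do not give. Markers of other tissue parts were present. Of 8 cone markers 0 were called (1 had an unadjusted p under 0.05), of 6 ON bipolar markers 2 were lower in objective day and 0 higher (5 had an unadjusted p under 0.05, with Grm6 and Trpm1 above 0), of 6 Müller glia markers 2 were lower (2 unadjusted), and of 5 RPE markers tested 1 was lower (2 unadjusted, with Rdh5 above 0), while Best1, a defining RPE gene, had at most 9.70. The summed level of 4 cornea markers was between 5331 and 5523 in subjective day and between 1617 and 2793 in objective day, with all 3 of those tested lower, although cornea-defining Krt12 had at most 12.5. Lens markers summed to 49271 and 55821 in the samples numbered 1 and to 5926 and 14090 in those numbered 2, with 0 of 4 called and 0 with an unadjusted p under 0.05, and skeletal muscle markers summed to between 43217 and 51533, with 0 of 4 called and 0 with an unadjusted p under 0.05. Of 3 blood markers listed, 1 was higher in objective day (2 unadjusted, both above 0). With the GC trend removed, the ON bipolar, Müller glia and RPE calls were lost while the cornea and blood calls held, and the value of the RPE marker called, Ermn, turned from -0.46 to 0.11. The part of these other tissues in the members' values was not tested.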

How the data were processed

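RNA-seq was performed on 4 pools of eyes of C3H mice, with 2 pools for each of the conditions named in the sample titles. According to the Methods and the submitters' processing notes, the authors demultiplexed reads with CASAVA 1.8, aligned them to Ensembl release 72 with TopHat2 2.0.9 and Bowtie2 2.1.0, estimated gene abundance with HTSeq and compared conditions with edgeR. The strand setting, filter and normalization are not given in the sources used here. Per gene and sample, the authors deposited a signal, taken here as read counts brought to a shared library size because the values are fractional with nearly equal totals, printed with up to 5 significant digits. The deposited log2 columns (fold change and CPM) and the deposited p-value columns hold the authors' own comparison and were not used. All 4 columns of sample values were used.

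Because the values are not raw counts, limma 3.58.1 in R 4.3.3 was fitted to log2(value + 1) of genes that reached 10 in 2 or more samples, with a variance prior that follows mean expression and Benjamini-Hochberg adjustment at 0.05 over all genes. Confidence intervals are limma's at 95% and unadjusted. Nothing in the labels says whether samples of a condition were processed apart, so p-values measure the spread between these samples. With 2 samples in each condition, precision is limited by their number. GC content and length came from GENCODE M21. The GC trend was removed by local regression (span 0.3) of each sample's deviations. Motifs were searched in 250 bases upstream of RefSeq starts. The fit was tested on simulated counts for these genes, with 200 of them changed and an assumed dispersion of 0.01. It recovered 84.5% of the changed genes at 2-fold but 10% at 1.5-fold. The largest difference of a member was 1.42-fold, for Sag, so a member that did not pass the threshold cannot be called unchanged.

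The members, gene lists, markers and tests were chosen with earlier results of these data known. Named genes are the 10 members, the listed partners and activation genes (some values of these lists are not reported here), markers that bear on a member, and the 5 genes nearest in profile with a mean of at least 1000. Alternatives covered scaling, the replicate block, GC content, pseudocounts, filters, the variance prior and each sample left out. Figures were drawn with matplotlib 3.10.9.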

Additional observations from a re-analysis of the deposited data

How the results depend on the processing

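With 2 samples in each condition, the number of calls moved with the setting. Of the 10 members, 1 was called as reported, 5 with quantile normalization, 4 when scaled to rod markers, 2 with median scaling and 0 with the GC trend removed, from either transcript. The count for the 17 partner and activation genes was 0 as reported, 5 with quantile normalization, 2 with median scaling, and 1 with a pseudocount of 10 or a mean of at least 100. The share of all genes called was 9.06% with quantile normalization, 8.65% with median scaling, 8.63% with the pseudocount of 10 and 11.1% with the mean of at least 100. Without a variance trend 0 members and 0 of all genes were called by limma, while 3 and 3586 had an unadjusted p under 0.05. Of all genes, 1514 were called as reported, 966 when scaled to rod markers, 229 with the GC trend removed (122 lower and 107 higher) and 167 (98 and 69) with GC from coding transcripts, a setting chosen after seeing the data. Quantile normalization called 1211 lower and 401 higher, against 1325 and 189. With 1 sample left out, the calls ran from 664 to 2557 for all genes, from 0 for the members (without either objective day sample) to 4 (without subjective day sample 1), and from 0 to 2 for the 17 partner and activation genes.

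The sample labels number the samples of each condition 1 and 2 without saying that the numbers mark a shared batch. Deviations from the condition means correlated at 0.319 across genes between samples of the same number, and at 0.474 over genes with a mean of at least 100. With the replicate number as a block, 3613 genes were called (20.3%, with 2331 lower and 1282 higher). Among the rod markers, Reep6 and Nr2e3, above 0, and Samd7, Esrrb and Prom1, below 0, were called. So were 5 members (Sag, Guca1a, Guca1b, Gucy2f and Pdc) and 10 of the 17 partner and activation genes. With the block and the GC trend removed, 1569 genes (8.82%; 712 lower and 857 higher), 4 members and 5 of these 17 genes were called, Pdc reversed to 0.31 (adjusted p = 0.0050), and Gucy2f was not called. With the block and GC from coding transcripts, 960 genes (469 lower and 491 higher), 4 members and 3 of the 17 were called, and Pdc was at 0.39 (adjusted p = 0.0114). Sag, Guca1a, Guca1b, Grk1 and Gucy2e stayed above 0 and Gucy2f below 0 in all 17 alternatives. These are refits of the same samples, and the sign held for Grk1 although it differed little. The cause of these differences between settings was not tested.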
